A study of Mus musculus with 9 samples.

Results

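The cultures described here were the untreated normal RGCs of a mouse RNA-sequencing study, 3 of its 9 libraries. RGCs are retinal ganglion cells, the neurons that carry visual signals from the retina to the brain. The 3 libraries were chosen by their labels as normal RGCs. The others came from aging RGCs and from aging RGCs grown in medium conditioned by urine-derived stem cells, and none of them is compared here. All 3 libraries were labelled as wild type, without a treatment, strain, age or sex. The cells were bought from a supplier, grown in high-glucose medium with 10% fetal bovine serum, and passaged with trypsin whenever they neared confluence. The study's methods give the 3 libraries of a group as replicate wells of these purchased cells, and nothing ties them to separate animals, so their spread measures differences between wells. The deposited table held 22322 genes, with an expected count (an estimated number of reads per gene) and an FPKM value (fragments scaled to transcript length and library size) for each library. Expected counts summed to 22342288 in replicate 1, 20062796 in replicate 2 and 19814241 in replicate 3. Levels are given below as FPKM, as mean ± SD over the 3 libraries unless each library's value is written out. A gene is called expressed where its FPKM was at least 1 in all 3 libraries.

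Retinal ganglion cells are post-mitotic projection neurons. In the mouse their fate is set by the transcription factor Atoh7, followed by Pou4f2 and Isl1, and mature cells are recognised by the RNA-binding protein Rbpms, by Brn3 factors such as Pou4f1, by gamma-synuclein (Sncg), by neurofilaments and by the vesicular glutamate transporter Slc17a6. They do not divide in culture, and they depend on neurotrophins that act through the Ntrk receptors.

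Most markers of retinal ganglion cells were not expressed in these cultures. Of 20 list members 5 were expressed, 7 had 0 counts in every library, and the median member stood at 0.0217 FPKM. Over all 22322 genes 47.3% were expressed and the median was 0.60 FPKM. At 1 count in each library 10 of the 20 members passed, as did 13320 of all genes. Rbpms measured 33.1, 30.5 and 31.0 FPKM in replicates 1, 2 and 3, and its paralog Rbpms2 26.3, 28.0 and 27.3 FPKM. Nefl, the light neurofilament subunit, measured 17.6, 20.5 and 19.9 FPKM, and 32.8% of its exon bases overlap a gene on the other strand. Isl1, a LIM-homeodomain factor of ganglion cells, motor neurons and other tissues, measured 7.70, 7.35 and 9.36 FPKM. Eomes, a T-box factor of some ganglion cell types, measured 6.95, 6.99 and 7.87 FPKM. These 5 genes lay at similar levels in every library. Their usual partners did not accompany them. Pou4f1 stood at 0.09, 0.11 and 0.11 FPKM, Sncg at 0.37, 0.29 and 0.30 FPKM, and Slc17a6 at 0.03, 0.02 and 0.02 FPKM. Thy1, a surface protein long used to purify ganglion cells, stood at 0, 0.03 and 0.03 FPKM. Nefm and Nefh, the other neurofilament subunits, averaged 0.157 and 0.0033 FPKM, and Jam2 and Tbr1 stayed at or under 0.10 FPKM in every library. Pou4f2, Pou4f3, Atoh7, Opn4 (melanopsin), Ebf3 and Kcng4 were among those with 0 counts. A count of 0 in all 3 libraries allows a level of up to 0.0482 CPM (counts scaled to library size), taken as 3 counts in the summed 62219325, for counting error only. The labelled cell type is thus not borne out by its defining markers, and the libraries are called by their label, normal RGCs, in what follows.

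The promoters of 4 transcription factor genes are shown, of ganglion cell regulators that were near 0 (Pou4f1), at 0 (Pou4f2) and expressed (Isl1), and of Atf4, an abundant factor of the cultures. Each is the 250 bases before the most upstream RefSeq start on GRCm38.p6, written 5′ to 3′ on the gene's strand with CG dinucleotides in capitals. The data do not tell which start the cells used.
Pou4f1: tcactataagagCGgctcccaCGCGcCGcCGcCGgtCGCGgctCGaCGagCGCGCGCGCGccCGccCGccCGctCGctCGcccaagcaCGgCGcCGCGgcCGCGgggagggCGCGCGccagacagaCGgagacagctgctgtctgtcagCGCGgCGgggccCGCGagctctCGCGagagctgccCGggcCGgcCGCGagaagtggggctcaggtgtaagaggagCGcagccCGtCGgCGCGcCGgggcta
Pou4f2: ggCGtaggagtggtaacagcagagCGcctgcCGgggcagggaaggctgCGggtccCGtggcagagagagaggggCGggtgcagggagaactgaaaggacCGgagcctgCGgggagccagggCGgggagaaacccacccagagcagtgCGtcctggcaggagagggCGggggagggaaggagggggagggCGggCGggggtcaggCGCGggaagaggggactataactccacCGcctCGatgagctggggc
Isl1: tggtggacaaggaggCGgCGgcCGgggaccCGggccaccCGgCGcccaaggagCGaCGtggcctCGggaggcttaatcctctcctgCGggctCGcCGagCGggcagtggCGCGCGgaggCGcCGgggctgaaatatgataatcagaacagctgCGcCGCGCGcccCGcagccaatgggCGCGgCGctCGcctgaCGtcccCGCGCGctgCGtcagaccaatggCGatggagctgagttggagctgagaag
Atf4: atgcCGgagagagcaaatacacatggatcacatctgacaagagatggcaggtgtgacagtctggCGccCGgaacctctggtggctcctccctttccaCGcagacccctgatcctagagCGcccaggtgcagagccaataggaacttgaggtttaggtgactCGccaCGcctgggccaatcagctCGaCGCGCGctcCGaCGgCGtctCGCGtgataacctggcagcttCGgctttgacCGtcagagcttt
The Pou4f1 window (chr14:104468000-104468249, minus strand) held 47 CG dinucleotides, that of Pou4f2 (chr8:78436648-78436897, minus strand) 17 and that of Isl1 (chr13:116309689-116309938, minus strand) 33. That of Atf4 (chr15:80254934-80255183, plus strand) held 18. These 4 genes were chosen after their values were seen. The letters TATAAA, on either strand, were in none of the 4 windows, GGGCGG was in those of Pou4f1 and Pou4f2, and CCAAT in those of Isl1 and Atf4. A match is a description of these letters and says nothing about a factor bound there.

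Markers of the other retinal cells were mostly near 0. In each of these lists, and in that of lens and cornea, the share expressed was under the 47.3% of all genes. Of 16 photoreceptor genes 1 was expressed, Rom1 (a disc membrane protein) at 4.26 ± 0.297 FPKM, while 9 had 0 counts, among them Crx and Nrl, the factors that set photoreceptor fate. Of 20 genes of bipolar, amacrine and horizontal cells 3 were expressed. Slc6a9, a glycine transporter with 30.2% of its exon bases under a gene on the other strand, averaged 28.3 ± 1.48 FPKM, Tfap2a 12.1 ± 1.04 FPKM and Onecut2 1.92 ± 0.107 FPKM, while Otx2, Gad1, Chat and Prox1 were among the 13 at 0. Of 16 genes of Müller glia and astrocytes 5 were expressed. They were the widely used genes Vim (797 ± 22.5 FPKM), Clu (204 ± 9.48 FPKM) and Glul (39.1 ± 2.14 FPKM) and the factors Sox9 (6.45 ± 0.448 FPKM) and Sox2 (2.88 ± 0.289 FPKM). The more specific glial genes stayed near 0, with Slc1a3 and Rlbp1 at or under 0.05 FPKM in each library and Aqp4 at 0 counts. Of 13 genes of the retinal pigment epithelium 2 were expressed, Mitf at 8.21 ± 0.378 FPKM and Rdh5 at 4.20 ± 0.105 FPKM, and Tyr, Dct and Ttr had 0 counts. Among 15 genes of the eye field and of retinal progenitors 5 were expressed and the other 10 had 0 counts. Pax6, the eye regulator, measured 4.14, 4.14 and 4.74 FPKM, beside Ccnd1 (74.2 ± 2.17 FPKM), Notch1 (6.18 ± 0.306 FPKM), Hes1 (5.64 ± 0.445 FPKM) and Sox2, whereas Rax, Six3, Six6 and Lhx2 were at 0. Of 12 lens and cornea genes 2 were expressed, Cryab, a small heat shock protein, at 13.3 ± 3.29 FPKM and Pax6.

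Of 18 pan-neuronal members 9 were expressed, 50% against the 47.3% of all genes, with a median of 1.19 FPKM. At a threshold of 5 FPKM in each library 2 of the 18 passed, as did 8253 of all genes. The highest were the RNA-binding protein Celf4 (24.8, 25.5 and 26.9 FPKM) and the vesicle protein Vamp2 (16.2, 16.5 and 16.02 FPKM). Map2, Uchl1 and Syn1 followed at 5.16 ± 0.315, 4.55 ± 0.457 and 3.997 ± 0.107 FPKM. Tubb3, the neuronal tubulin widely used to stain ganglion cells, measured 2.44, 2.88 and 2.43 FPKM. Elavl2 averaged 2.64 ± 0.609, Snap25 1.84 ± 0.527 and Ina 1.42 ± 0.307 FPKM. In contrast, Rbfox3 (NeuN), Dcx (doublecortin), Stmn2, Stmn3 and Elavl3 had 0 counts in all 3 libraries, and Gap43, the growth cone protein, stayed at or under 0.09 FPKM.

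Of the 19 lineage lists, that with the largest share of expressed members was that of mesenchymal cells and fibroblasts, with 15 of 25 members (60%, against the 47.3% of all genes) and a median of 9.55 FPKM. Vim, the mesenchymal intermediate filament, measured 791, 822 and 778 FPKM, and Sparc, a secreted matrix protein, 359, 359 and 374 FPKM. S100a4, a calcium-binding protein, averaged 587 ± 21.1 FPKM, and 51.7% of its exon bases are shared with another gene on its strand. Fibronectin (Fn1) averaged 129 ± 5.98 FPKM, the collagens Col3a1, Col6a1 and Col5a1 96.7 ± 6.45, 43.3 ± 3.09 and 39.8 ± 0.994 FPKM, and N-cadherin (Cdh2) 26.9 ± 0.248 FPKM. The factors of epithelial-mesenchymal transition Zeb1, Zeb2, Twist1 and Snai2 averaged 22.9 ± 3.25, 16.1 ± 0.372, 14.03 ± 0.496 and 9.55 ± 0.896 FPKM, and Twist2 averaged 41.5 ± 3.22 FPKM with 46.5% of its exon bases under a gene on the other strand. The classic fibroblast products were low. Col1a1 averaged 2.55 ± 0.373 FPKM, Col1a2 0.03 ± 0.02 FPKM, Dcn 0.193 ± 0.127 FPKM and Lum 0.0133 ± 0.0115 FPKM, and Postn had 0 counts.

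Epithelial markers showed the simple keratins at high levels, with some junction genes expressed and others at or near 0. Krt19 measured 231, 238 and 244 FPKM, Krt18 217, 244 and 227 FPKM, and Krt8 206, 228 and 212 FPKM. These 3 keratins, which pair to form the filaments of simple epithelia, were close to each other in every library. Desmoplakin (Dsp) averaged 8.48 ± 1.09 FPKM, occludin (Ocln) 5.83 ± 0.384 FPKM and the epithelial factor Grhl2 3.47 ± 0.0265 FPKM. Epcam measured 0.77, 1.09 and 1.60 FPKM, on either side of the threshold. E-cadherin (Cdh1) stood at 0.05, 0.01 and 0.01 FPKM, and Cldn7, Esrp1 and the basal keratins Krt5 and Krt17 had 0 counts. In all, 6 of 22 epithelial members were expressed (27.3%, against 47.3% of all genes), with a median of 0.0467 FPKM.

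**Figure D1:**
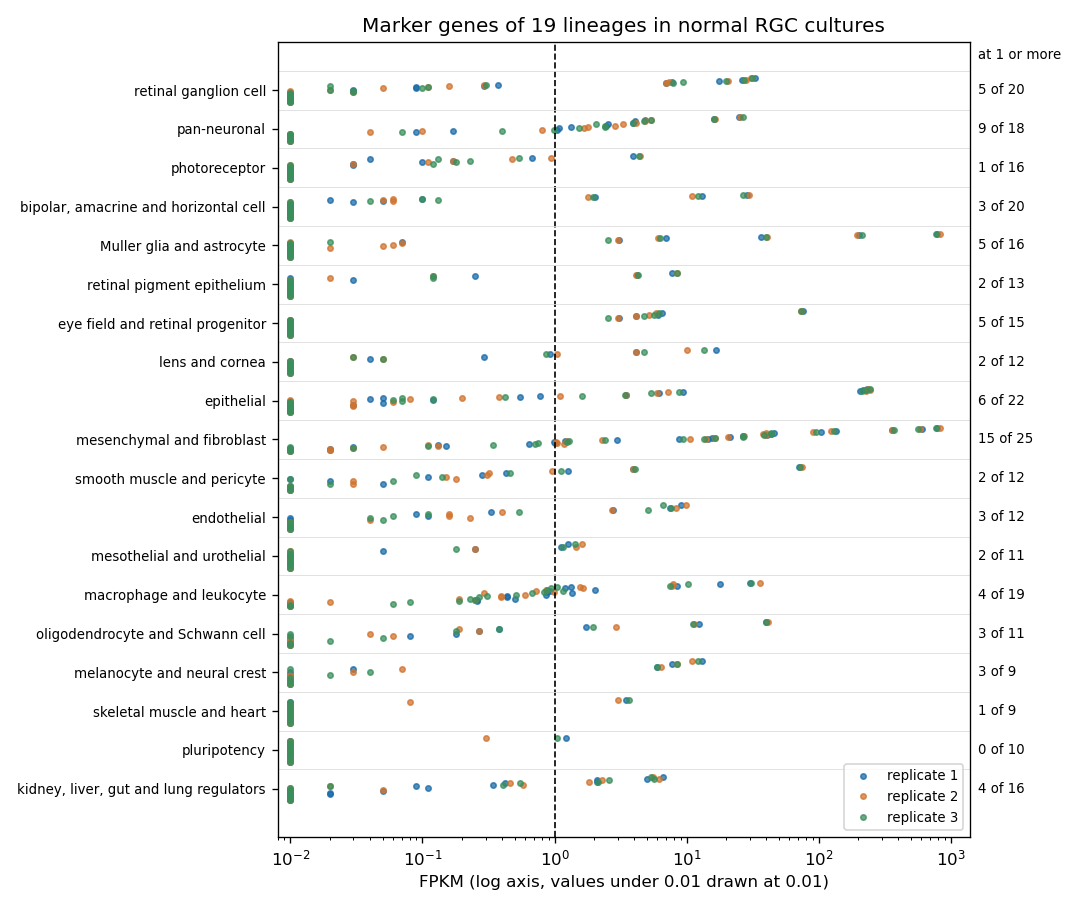
FPKM (log axis) of every member of the 19 lineage lists in each of the 3 normal RGC libraries, 1 point per gene and library in the colour of its replicate, with values under 0.01 drawn at 0.01. The dashed line marks 1 FPKM and the counts on the right give the members at 1 or more in all 3 libraries, 5 of 20 for retinal ganglion cells and 15 of 25 for mesenchymal cells.

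In each of the remaining lists the share of expressed members was under the 47.3% of all genes. Smooth muscle genes gave 2 of 12, with the tropomyosin Tpm2 at 72.5 ± 1.65 FPKM and Des at 3.98 ± 0.0643 FPKM beside Acta2 at 0.133 ± 0.0208 FPKM. Endothelial genes gave 3 of 12, Egfl7 at 8.50 ± 1.72, Flt1 at 7.80 ± 0.40 and Cdh5 at 3.52 ± 1.34 FPKM, with Kdr at 0.01 FPKM in each library. Mesothelial and urothelial genes gave 2 of 11, Msln at 1.43 ± 0.18 and Anxa8 at 1.24 ± 0.188 FPKM, with Wt1 and the uroplakins Upk2 and Upk3a at 0. Oligodendrocyte and Schwann cell genes gave 3 of 11, Pmp22 at 40.4 ± 0.949, Cnp at 11.7 ± 0.708 and Egr2 at 2.20 ± 0.62 FPKM, with Sox10 at or under 0.02 FPKM. The shared list of melanocytes and neural crest gave 3 of 9, Tfap2a, Mitf and Pax3 (6.14 ± 0.24 FPKM), again without Sox10. Of 9 muscle and heart genes only Tnnt2 was expressed, at 3.38 ± 0.34 FPKM, and Myod1 was at 0. None of 10 pluripotency genes was expressed, and 9 of them, Pou5f1 and Nanog included, had 0 counts. Of 16 regulators of kidney, liver, gut and lung 4 were expressed, the endoderm factors Foxa2 (5.84 ± 0.66 FPKM), Gata6 (5.64 ± 0.603 FPKM) and Cdx2 (2.01 ± 0.157 FPKM) and the fetal plasma protein Afp (2.31 ± 0.258 FPKM).

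Macrophage and leukocyte genes were detected, mostly under 1 FPKM. The list median of 0.657 FPKM was close to the 0.60 of all genes, and 2 of 19 members had 0 counts. At a threshold of 0.1 FPKM 14 members passed, a larger share than the 12163 of all 22322 genes. At 1 TPM (FPKM rescaled to equal sums) 9 members passed, as did 11089 of all genes. At 1 FPKM 4 passed (21.1%, against 47.3% of all genes), Cd68 at 32.3 ± 3.07, Lyz2 at 11.95 ± 5.14, Cd14 at 7.92 ± 0.505 and Fcer1g at 1.31 ± 0.251 FPKM. The summed level of the list was 67.0, 59.5 and 55.9 FPKM in replicates 1, 2 and 3, and without Cd68, its most abundant member, 36.7, 23.6 and 25.1 FPKM. Of the defining genes, Ptprc (CD45) stood at 0.44, 0.39 and 0.31 FPKM, Csf1r at 2.01, 0.86 and 0.87 FPKM, Adgre1 (F4/80) at 1.35, 0.29 and 0.67 FPKM, and Cd3e at 0. Replicate 1 was thus the highest for Lyz2, Csf1r and Adgre1, whereas Cd68, the most abundant member, was highest in replicate 2. Whether other cells were present in the cultures was not tested. In bulk RNA, fewer cells of a type and less RNA per cell cannot be told apart.

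**Figure D2:**
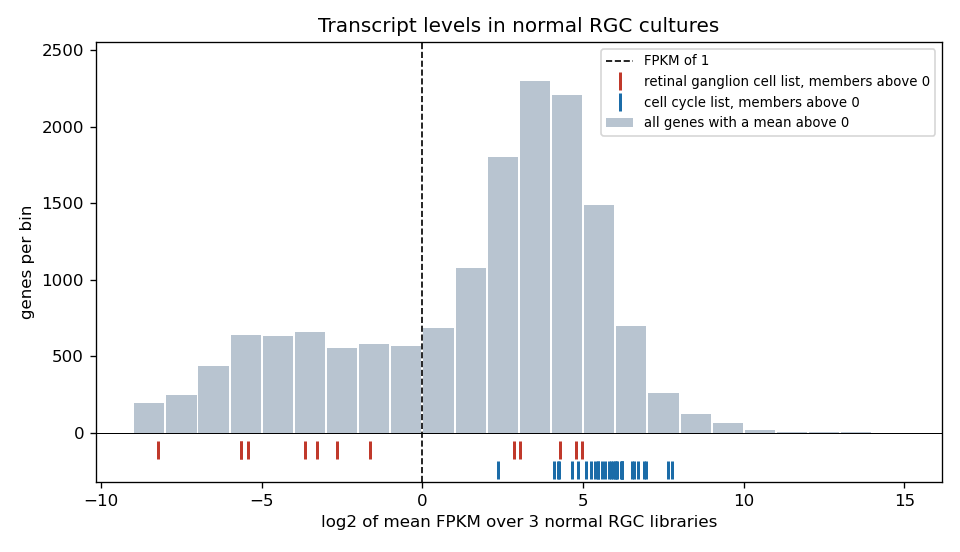
Number of genes in each bin of log2 mean FPKM over the 3 normal RGC libraries, for genes with a mean above 0. Ticks below the bars mark the members of the retinal ganglion cell list and of the cell cycle list that were above 0, and the dashed line marks 1 FPKM.

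Levels had a single clear peak, as the histogram of mean FPKM shows. Of 22322 genes 10565 were expressed, 7057 (31.6%) had 0 counts in every library and 4700 lay between. The fullest bin, from 8 to 16 FPKM, held 2300 genes, the 3 bins from 0.125 to 1 FPKM held 558 to 578 each, and the 3 below them, down to 0.0156 FPKM, 631 to 657 each. A mean of at least 10 FPKM was reached by 6533 genes, of at least 100 by 660 and of at least 1000 by 37. The median expressed gene stood at 14.3 FPKM.

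The most abundant transcripts were those of the mitochondrial genome, of translation and of glycolysis. Mitochondrial genes filled 12 of the first 20 places. The cytochrome c oxidase subunit mt-Co2 measured 17157, 18211 and 18237 FPKM, followed by mt-Atp6, mt-Co1, mt-Nd1, mt-Cytb, mt-Co3 and mt-Nd2. The other mitochondrial genes among the 20 were mt-Nd4, mt-Nd3, mt-Atp8, mt-Nd5 and mt-Nd6, all of the oxidative phosphorylation chain. The elongation factor Eef1a1 led the nuclear genes at 4859, 4744 and 4837 FPKM. The glycolytic enzymes Gapdh, Eno1 and Ldha averaged 2729 ± 71.6, 1570.04 ± 28.8 and 1549 ± 73.6 FPKM. The ribosomal proteins Rps2 and Rpl23a averaged 2543 ± 81.9 and 1769.96 ± 22.5 FPKM, the nucleolar protein Npm1 1749.6 ± 63.9 FPKM, and the chaperone Hsp90ab1 1515 ± 12.5 FPKM. Of the exon bases of Rpl23a 59.7% lie under a gene on the other strand. The order was firm only in part, since 9 of the 19 pairs of neighbours in it had overlapping ranges over the 3 libraries. By CPM, which does not correct for length, 15 of the same 20 genes filled the first 20 places. With mitochondrial genes left out, the galectin Lgals1 (1497 ± 60.3 FPKM), the nuclear protein Ptma, the cyclophilin Ppia, the growth-associated Tpt1, the ferritin light chain Ftl1 and pyruvate kinase (Pkm, 1212 ± 21.98 FPKM) came into the first 20, which then held 8 ribosomal protein genes in all.

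These classes also took large shares of all transcripts per length. The 13 mitochondrial mRNAs held 18.6%, 19.1% and 19.4% of summed FPKM in replicates 1, 2 and 3, and 8.74 ± 0.288% of expected counts, which are not divided by length. All 78 ribosomal protein genes of the table were expressed, with a median of 563 FPKM and a share of 10.3%, 10.2% and 10.01%. The 10 most abundant genes held 18.4 ± 0.376% and the 100 most abundant 36.1 ± 0.316% of summed FPKM, and 42 of those 100 were ribosomal. Of expected counts, the first 10 and the first 100 genes held 9.31% and 21.1%, and the ribosomal protein genes 4.06%. By the pathway annotation of the table, the KEGG Ribosome pathway held 10.7 ± 0.163% of summed FPKM (129 of 147 genes expressed) and 4.29% of expected counts. Glycolysis and gluconeogenesis held 2.28 ± 0.0388% with 40 of 70 genes expressed. The broad class of metabolic pathways held 8.66 ± 0.0338% over 1589 genes, 969 of them expressed. Only 1 of the 13 mitochondrial genes carries a pathway in this annotation, so the pathway shares leave out most mitochondrial mRNAs.

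Of 1219 genes annotated with transcription factor activity 629 (51.6%, close to the 47.3% of all genes) were expressed, with a median over the class of 1.49 FPKM, and 328 had 0 counts. Rhox5, an X-linked homeobox gene known from the reproductive tract and from cultured cells, was the highest at 436, 509 and 473 FPKM. The other 31 Rhox genes of the table had 0 counts in all 3 libraries. The stress factor Atf4 measured 374, 403 and 373 FPKM, and the tumour suppressor Trp53 183, 173 and 185 FPKM. Below them came Pcbp1 (146 ± 4.56 FPKM), the Nrf factors Nfe2l1 (140.04 ± 7.18 FPKM) and Nfe2l2 (95.7 ± 1.82 FPKM), the E2F partner Tfdp1 (106 ± 3.02 FPKM) and the hypoxia factor Hif1a (85.0 ± 1.01 FPKM). The unfolded protein factor Xbp1 averaged 70.6 ± 7.004 FPKM, the E protein Tcf12 76.2 ± 3.92 FPKM and the ETS factor Etv4 60.2 ± 0.821 FPKM. Gpbp1 and Lrrfip1 averaged 65.8 ± 2.87 and 60.2 ± 2.32 FPKM. The AP-1 member Fosl1 averaged 64.8 ± 3.74 FPKM, and 57.2% of its exon bases lie under a gene on the other strand. Rhox5 and Atf4 did not overlap with each other or with any factor below them. Pcbp1 overlapped with Nfe2l1, Tcf12 with Xbp1, Xbp1 with Gpbp1, and each of Gpbp1, Fosl1, Lrrfip1 and Etv4 with the next.

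**Figure D3:**
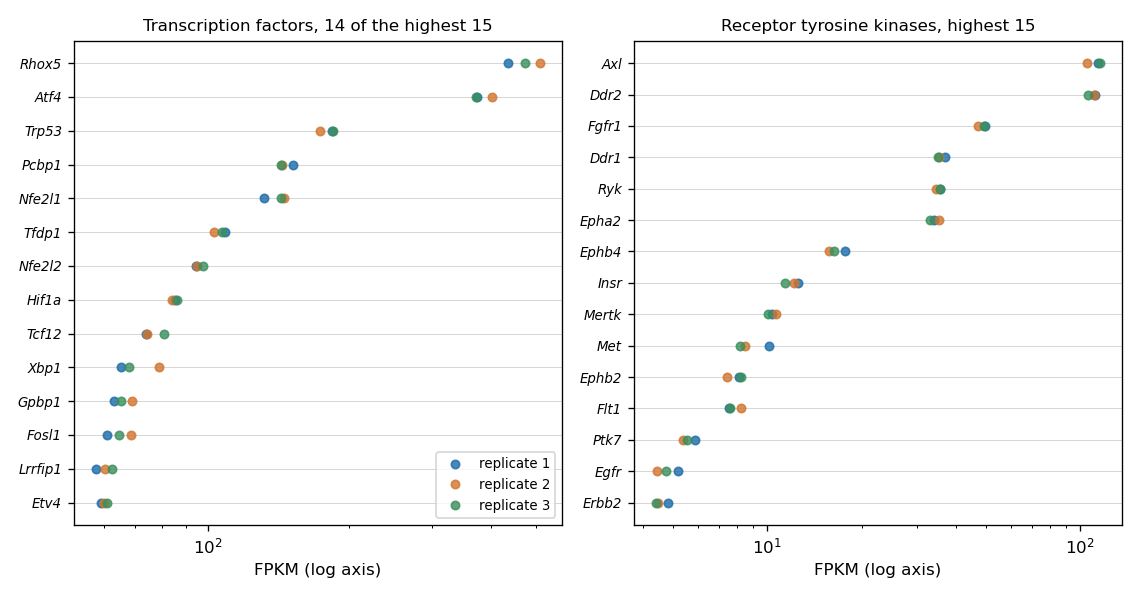
FPKM (log axis) in each of the 3 normal RGC libraries of 14 of the 15 transcription factor genes and of the 15 receptor tyrosine kinases with the highest means, 1 point per library. Rhox5 and Atf4 stand above the other transcription factors, and Axl and Ddr2 above the other kinases.

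HOX genes, which record position along the body axis, were expressed from 3 of the 4 clusters. Of 39 genes 15 were expressed (38.5%, below the 47.3% of all genes) and 11 had 0 counts. At 0.1 FPKM the order turned, with 23 of the 39 passing beside 12163 of all 22322 genes. In the Hoxa cluster on chromosome 6, 9 of 11 were expressed. Hoxa9 measured 19.5, 15.9 and 19.1 FPKM, Hoxa10 15.1, 14.01 and 15.1 FPKM, and Hoxa11, with 35.0% of its exon bases under a gene on the other strand, 12.9, 10.7 and 13.0 FPKM. The peak of the cluster thus lay at the posterior genes. Hoxa7 averaged 4.55 ± 0.609 FPKM, and Hoxa13, Hoxa3, Hoxa5 and Hoxa4 lay between 1.22 and 1.95 FPKM. In the Hoxc cluster on chromosome 15, 4 of 9 were expressed, led by Hoxc10 at 17.7, 16.1 and 16.1 FPKM, then Hoxc6 (6.38 ± 1.25 FPKM), Hoxc9 (2.84 ± 0.0802 FPKM) and Hoxc11 (1.63 ± 0.493 FPKM). The Hoxd cluster on chromosome 2 had Hoxd8 at 6.60 ± 0.767 FPKM and Hoxd9 at 1.66 ± 0.344 FPKM, while Hoxd10 to Hoxd13 were at or under 0.05 FPKM in each library. Hoxd4, at 1.08 ± 0.193 FPKM, was under 1 in replicate 1 and shares 52.3% of its exon bases with another gene on its strand. None of the 10 Hoxb genes on chromosome 11 was expressed, 6 of them had 0 counts, and the whole cluster summed to 0.07, 0.09 and 0.10 FPKM. The summed level was 58.6 FPKM for Hoxa, 29.7 FPKM for Hoxc and 9.51 FPKM for Hoxd, each over all members.

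**Figure D4:**
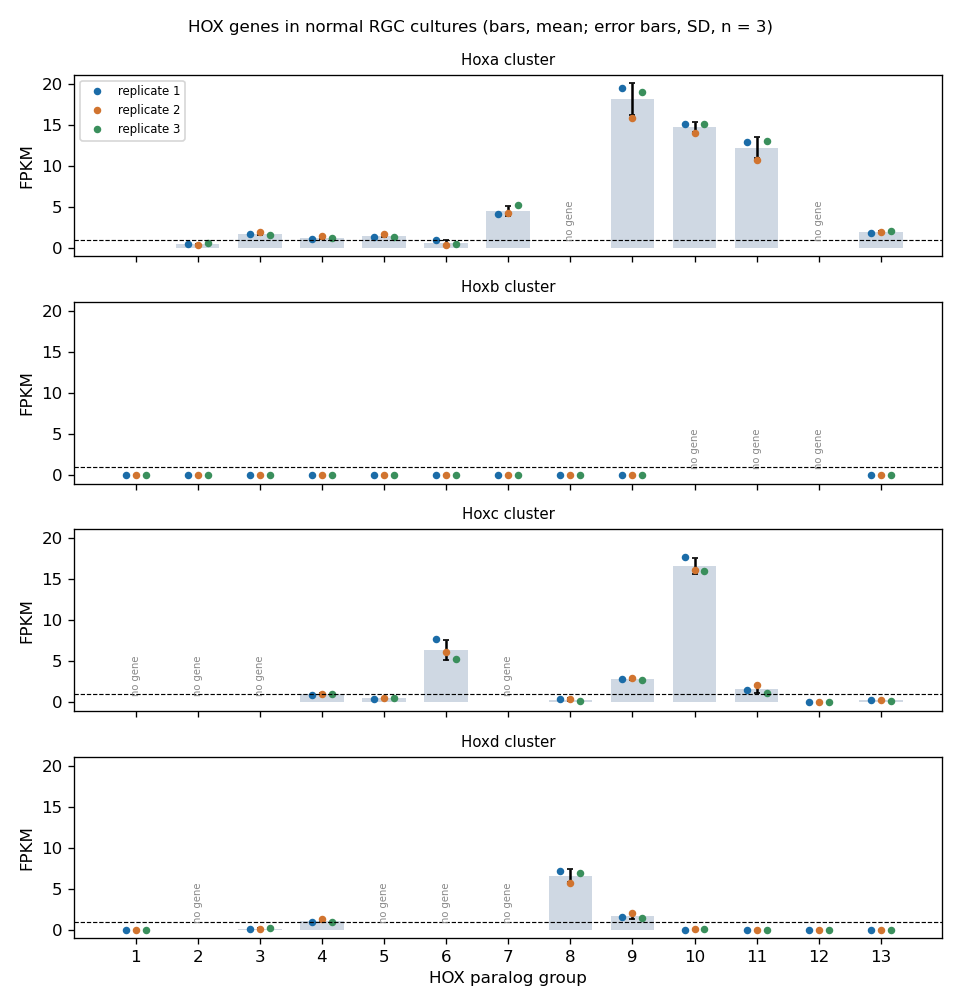
FPKM of 38 of the 39 HOX genes in the 3 normal RGC libraries, by cluster and paralog group, with bars for the mean, error bars for the SD over 3 libraries, points for each library and a dashed line at 1 FPKM. Hoxa9, Hoxa10, Hoxa11 and Hoxc10 stand highest, and no Hoxb gene rises above the baseline.

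Nuclear receptors, the transcription factors switched by hormones and lipids, gave 24 expressed of 48 (50%, close to the 47.3% of all genes), with a median of 1.18 FPKM. The highest was the glucocorticoid receptor Nr3c1 at 29.4, 31.8 and 29.2 FPKM. It was level with Ppard at 30.2, 30.8 and 28.5 FPKM and the thyroid hormone receptor Thra at 28.2, 27.8 and 29.7 FPKM. The oxysterol receptor Nr1h2 averaged 25.8 ± 0.892 FPKM, and the retinoid receptors Rarg, Rxrb, Rara and Rxra 23.7 ± 1.86, 22.3 ± 0.121, 16.7 ± 1.29 and 11.2 ± 0.695 FPKM. Estrogen receptor Esr1 averaged 2.06 ± 0.285 FPKM, and Pgr and Esr2 had 0 counts.

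Of 1081 genes annotated with receptor activity, odorant and other chemosensory receptors left out, 311 (28.8%) were expressed, a smaller share than the 47.3% of all genes. The class median was 0.0533 FPKM. Several of its highest members are known mainly for roles other than signalling at the cell surface. Rack1 and Rpsa belong to the ribosome, Atp5b to the ATP synthase, and Kpna2, Kpnb1, Xpo1 and Ipo5 carry cargo through the nuclear pore. Among the others were the matrix metalloproteinase inducer Bsg (373 ± 12.9 FPKM), the hyaluronan receptor Cd44 (143, 151 and 144 FPKM), the mitochondrial protein Tspo (127 ± 7.03 FPKM), the semaphorin receptor Plxnb2 (121 ± 7.87 FPKM), the syndecan Sdc4 (114 ± 2.87 FPKM) and Loxl2 (108 ± 1.67 FPKM). Of 1545 chemosensory receptors 7 were expressed and 1389 had 0 counts, and the highest, Olfr1388, averaged 6.90 ± 0.764 FPKM from counts that were not whole numbers.

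Receptor tyrosine kinases gave 18 expressed of 52 (34.6%, against the 47.3% of all genes), with a median of 0.138 FPKM. Axl, the receptor of Gas6, measured 114, 105 and 115 FPKM, and Ddr2, a receptor of fibrillar collagen, 111, 110 and 106 FPKM. Fgfr1 averaged 48.7 ± 1.496 FPKM, the collagen receptor Ddr1 35.8 ± 0.988, the Wnt co-receptor Ryk 35.3 ± 0.599 and the ephrin receptor Epha2 34.2 ± 1.18 FPKM. The ranges of Axl and Ddr2 overlapped, as did those of Ddr1, Ryk and Epha2. Insr averaged 12.04 ± 0.56, Met 8.93 ± 1.03, Egfr 4.79 ± 0.377 and Igf1r 2.32 ± 0.188 FPKM, while Fgfr2 and Erbb4 had 0 counts and Pdgfra and Pdgfrb lay near 1 FPKM. G protein-coupled receptors gave 45 expressed of 405 (11.1%, against 47.3% of all genes). They were led by the adhesion receptor Adgre5 (64.8 ± 5.77 FPKM), the thrombin receptor F2r (62.7 ± 1.94 FPKM) and Gprc5a (45.6 ± 4.57 FPKM). Cytokine receptors gave 20 of 52 (38.5%, again against 47.3%). Below Cd44, which carries that annotation, these were led by Il13ra1 (43.5 ± 2.35 FPKM), Il6st (23.9 ± 0.212 FPKM) and the interferon receptor chains Ifnar1 and Ifnar2 (19.2 ± 0.44 and 18.1 ± 1.38 FPKM).

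Receptors of the neurotrophins, on which ganglion cells depend, were at or near 0. Ntrk2, Gfra3, Gfral and Ret had 0 counts, Ntrk3 stood at 0.11, 0 and 0.02 FPKM, and the shared receptor Ngfr at 0.03, 0.07 and 0.01 FPKM. Cntfr, the receptor of ciliary neurotrophic factor, averaged 0.0167 ± 0.0289 FPKM. The signalling chain that Cntfr works through was present, with Il6st at 24.2, 23.9 and 23.8 FPKM and Lifr at 6.23, 5.57 and 6 FPKM. With these, Il6ra (7.91 ± 0.157 FPKM), Osmr (5.20 ± 0.472 FPKM), Il11ra1 (4.51 ± 0.367 FPKM) and the sorting receptor Sort1 (2.09 ± 0.0289 FPKM) made up the 6 of 16 receptors that were expressed. That share was 37.5%, against 47.3% of all genes.

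Of 20 ligands 9 were expressed (45%, against 47.3% of all genes). Manf, a factor of the endoplasmic reticulum, averaged 107 ± 2.14 FPKM and Serpinf1 (pigment epithelium-derived factor) 30.3 ± 3.32 FPKM. Bdnf measured 5.97, 4.79 and 5.44 FPKM, so that this neurotrophin was transcribed where its receptor Ntrk2 was not. Il11 averaged 6.57 ± 0.785, Lif 6.10 ± 1.26, Clcf1 4.91 ± 0.541, Ptn 3.90 ± 1.00 and Ctf1 2.66 ± 0.635 FPKM. Gdnf stayed at or under 0.04 FPKM, and Ntf3 and Mdk had 0 counts.

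Among the 329 genes with growth factor or cytokine activity 93 (28.3%, against 47.3% of all genes) were expressed. Spp1, a secreted matrix phosphoprotein, measured 952, 936 and 1009.8 FPKM. The next 4, Mif (455 ± 9.32 FPKM), Gpi1 (385 ± 8.28 FPKM), Hdgf (313 ± 10.1 FPKM) and Hmgb1 (306 ± 17.9 FPKM), are broadly used genes with intracellular roles as well. Further down, Grn averaged 253 ± 10.5, the monocyte chemokine Ccl2 208 ± 13.0, Vegfa 118 ± 7.29 and Tgfb1 79.8 ± 2.89 FPKM. These 4 are named after their values were seen.

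Most neurotransmitter receptors and most pore-forming sodium and calcium channel genes were under 1 FPKM. Of 52 receptors of glutamate, GABA, glycine and acetylcholine 3 were expressed (5.77%, against 47.3% of all genes) and 27 had 0 counts. Gabbr1 averaged 6.63 ± 0.263 FPKM, the muscle-type acetylcholine subunit Chrnb1 4.15 ± 0.316 FPKM and Glrb 3.78 ± 0.414 FPKM. The NMDA subunit Grin1 averaged 0.0167 ± 0.0153 FPKM, and the AMPA subunits Gria2, Gria3 and Gria4 had 0 counts. None of the 10 pore-forming sodium channel genes was expressed, and Scn2a was the highest at 0.58, 0.47 and 0.71 FPKM. Of 10 pore-forming calcium channel genes Cacna1h, a T-type channel, was expressed at 3.39 ± 0.584 FPKM. By annotation, 191 of 557 genes with channel terms were expressed (34.3%, against 47.3% of all genes). However, the 5 highest, Hsp90ab1, Rack1, Anxa2, Ywhae and S100a10, bind or regulate channels and form no pore.

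Genes of cell division were expressed throughout. All 30 list members were expressed, where 47.3% of all genes were, with a median of 59.8 FPKM. Topoisomerase Top2a measured 223, 210.04 and 225 FPKM, the replication clamp Pcna 202, 194 and 207 FPKM, and the proliferation marker Mki67 76.4, 69.6 and 76.2 FPKM. The kinases Cdk4 and Cdk1 averaged 125 ± 6.01 and 118 ± 4.58 FPKM, Rrm2 105 ± 1.65 FPKM and Birc5 96.7 ± 2.61 FPKM, and the lowest member, Cdk6, 5.15 ± 0.694 FPKM. The level histogram places the whole list right of the threshold, while most ganglion cell markers lie left of it.

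Of 17 inhibitors and p53 genes 15 were expressed (88.2%, against 47.3% of all genes), with a median of 18.97 FPKM. Besides Trp53, its targets Cdkn1a (149, 160 and 155 FPKM), Ccng1 (65.7 ± 1.88 FPKM), Bax (46.1 ± 2.52 FPKM), Mdm2 (36.9 ± 2.37 FPKM) and Sesn2 (24.3 ± 0.987 FPKM) were all expressed. The members that were not were Cdkn2a and Cdkn2b, neighbours on chromosome 4 that encode inhibitors of the cyclin D kinases and the p53 activator Arf, both with 0 counts in all 3 libraries. Cdkn2a lies at chr4:89274471-89294653 and Cdkn2b at chr4:89306299-89311039 (GRCm38). Mtap, the next gene beside them at chr4:89137122-89181081, measured 65.3, 64.4 and 64.1 FPKM, and Klhl9, at chr4:88718292-88722465, averaged 22.5 ± 0.631 FPKM. On the other side Dmrta1 had 0 counts, and Elavl2, at chr4:91250763-91400785, measured 2.56, 3.28 and 2.07 FPKM. A silent gene and a deleted one cannot be told apart from read counts. Tert, the catalytic subunit of telomerase, measured 2.70, 1.88 and 2.33 FPKM.

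Structural families gave a further view, chosen after their values were seen. Their counts stand beside the 47.3% of all genes that were expressed, a share to which the integrins came close. Of 49 keratins 7 were expressed, Krt19, Krt18, Krt8, Krt13 (9.44 ± 0.454 FPKM), Krt76, Krt20 and Krt80, and 29 had 0 counts. Outside the keratins, 9 of 16 intermediate filament genes were expressed. Among them, the lamins Lmna and Lmnb1 averaged 344 ± 1.59 and 47.4 ± 0.839 FPKM, and Nes, a filament of progenitor cells, 27.6 ± 0.575 FPKM. Of 44 collagens 13 were expressed, led by the basement membrane chain Col4a1 (120, 102 and 116 FPKM), Col3a1, Col18a1 (87.3 ± 2.89 FPKM) and Col4a2 (63.4 ± 1.65 FPKM). Of 26 integrins 12 were expressed, led by the alpha chains Itga3, Itga5, Itgav and Itga6 at 67.5 ± 3.38, 64.7 ± 3.07, 63.9 ± 2.88 and 57.2 ± 3.201 FPKM. Itgb1, the beta chain that pairs with most of them, was listed at only 0.22, 0.51 and 0.34 FPKM, from 19, 38 and 26 expected counts. Why it was so low was not tested. The other beta chains Itgb2, Itgb7 and Itgb5 averaged 37.1 ± 3.80, 36.5 ± 5.34 and 33.9 ± 2.25 FPKM. Of 20 connexins 5 were expressed, led by Gja1 (34.2 ± 0.835 FPKM).

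Genes of the Y chromosome were at or near 0. Of 172 such genes 166 had 0 counts, where 31.6% of all genes did. Eif2s3y, Ddx3y, Uty and Kdm5d, which male cells use widely, averaged 0.08, 0.0167, 0.0167 and 0.0033 FPKM. The only member expressed, Gm21244, belongs to a repeated family and had counts that were not whole numbers, at 1.77 ± 0.0723 FPKM.

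Expressed genes had more CG dinucleotides in their promoters than the median of all promoters. A RefSeq window was matched by symbol for 8527 of 10565 expressed genes (80.7%), and the 250 bases before the start held a median of 17 CG dinucleotides, against 6 over the 27025 genes with a window. That background holds the expressed genes themselves, and 16817 of its genes are in the expression table. At least 10 were found in 78.8% of them and in 38.2% of all. The letters GGGCGG, on either strand, were in 62.6% against 33.0%, CCAAT in 37.3% against 34.5%, and TATAAA in 5.92% against 13.0%. Of the windows printed above, those of Pou4f2 (17) and Atf4 (18) lay between the quartiles of 11 and 23 for expressed genes, and those of Pou4f1 (47) and Isl1 (33) above them. A RefSeq start can lie far from the start in GENCODE, and this was not corrected.

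The 3 libraries were close to each other. Pearson's r of log2(FPKM + 1) across genes was between 0.9982 and 0.9984 for the 3 pairs, where genes are not independent replicates. Among 10063 genes with a mean of at least 100 counts, scaled to equal library totals, the median coefficient of variation was 4.68% and 87.3% of genes were under 10%. The median index of dispersion (variance over mean) was 2.06, where counting alone would give 0.693 with 3 libraries. With 2 libraries, where counting alone would give 0.455, it was 1.34 without replicate 1, 1.19 without replicate 2 and 1.69 without replicate 3. Thus 108 genes (1.07%) had a coefficient of variation over 20%, 73 of them among the 8677 genes with whole counts and 35 among the 1386 with fractional ones. That count was 174 without replicate 1 and 221 without replicate 3.

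The widest spreads were in genes with fractional counts. Galnt2l, with all of its exon bases shared with another gene on its strand, measured 3.52, 5.84 and 0 FPKM, a coefficient of variation of 94.2%. Derpc, likewise fully shared, and the Gm14440, Gm14288, Gm42715 and Gm43951 genes also had fractional counts, as did Sco2 and Nnt (13.6, 7.38 and 7.32 FPKM). Of the 10 most variable genes only Dpt, a dermal matrix protein, and Lyz2, lysozyme, had whole counts. Dpt had 152, 59 and 154 expected counts, lowest in replicate 2. Lyz2 had 522, 210 and 265 expected counts, highest in replicate 1. Among the 20 most variable genes with whole counts 14 were highest in replicate 1, among them the myeloid gene Acod1 (5.02, 3.17 and 2.42 FPKM), the chemokines Ccl9 (3.92, 2.40 and 1.95 FPKM), Ccl3 (19.5, 14.1 and 9.29 FPKM) and Cxcl2 (7.05, 5.08 and 3.94 FPKM), and Apoe (6.61, 3.93 and 4.40 FPKM). The summed macrophage list without Cd68 was highest in that library, as given above, but Lyz2 (17.75, 7.95 and 10.16 FPKM) is itself a member of it. Cd68 was highest in replicate 2. The part of that list in the spread of these genes was not tested.

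**Figure D5:**
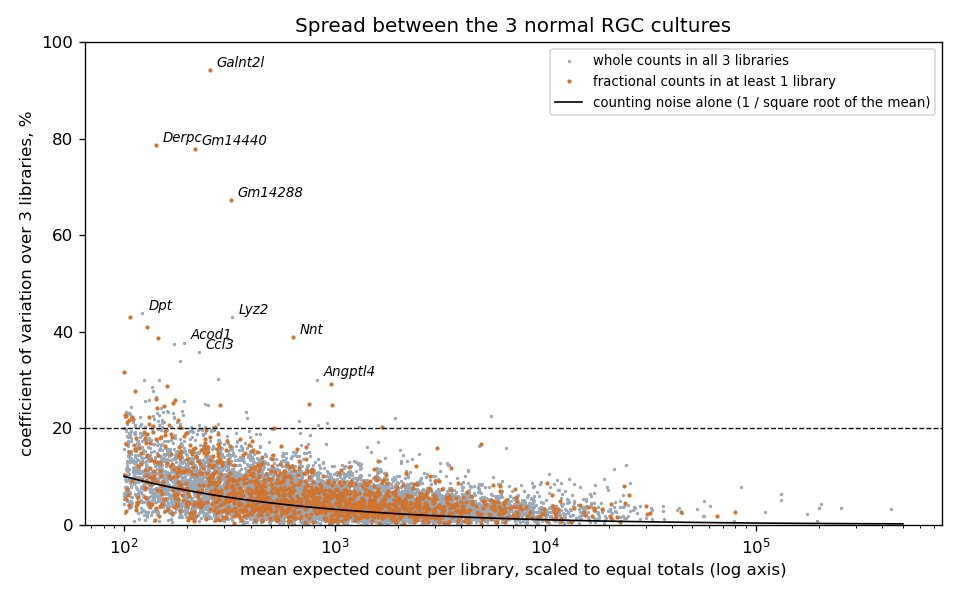
Coefficient of variation (%) over the 3 normal RGC libraries against the mean expected count per library (log axis) for genes with a mean of at least 100, in orange where a count was fractional. The curve is counting noise alone and the dashed line marks 20%, above which 108 genes lie.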

How the data were processed

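Values of the 3 normal RGC libraries were taken from the deposited gene table, with groups from the labels. Each gene has a deposited expected count (the estimated reads, with no normalization) and a deposited FPKM, which the authors scaled to transcript length and library size. mRNA was enriched with oligo(dT). The submitters' processing notes name mm10. For the aligner, the counting program and strandedness, the choice is not given in the sources used here. Of 22322 identifiers 22267 matched GENCODE M21 on GRCm38, the source of coordinates and exon overlaps.

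No test was made, since a single group was described. Means and SDs were computed in Python 3.11.15 with pandas 2.3.3 and numpy 2.4.6. TMM factors came from edgeR 4.0.16 in R 4.3.3 on expected counts rounded to whole numbers, and were between 0.997 and 1.003. Coefficients of variation used unrounded counts scaled to equal totals, and the calculation was tested on simulated data. Between 7.08% and 7.38% of values in a library were fractional, as happens where reads are split between genes that share sequence. Floors cover counting error only. Of rows that share a symbol (42 symbols) the higher mean was kept.

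Classes came from the gene ontology terms of the table, which also list proteins that only bind or assist a receptor or channel. Named were the 20 most abundant genes, the 15 highest receptors and 14 of the 15 highest transcription factors, up to 6 members of each list with its defining members, all expressed HOX genes, the 10 most variable genes, and the 5 highest growth factor and channel genes. Members and lists were chosen with earlier results of these data known. Structural families, the chromosome 4 neighbourhood, the Y chromosome, the printed promoters, and the members of the G protein-coupled and cytokine receptor classes were chosen after their values were seen. Krt3, Syncoil and Xist were not analysed here, and a few list members are not reported here. Promoters came from RefSeq by symbol, 1 window per gene. The check was void for genes at 0 (69.4% matched) and for transcription factors (73.3%). Alternatives were other thresholds and units, and leaving out each library.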

Additional observations from a re-analysis of the deposited data

How the results depend on the processing

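No paired analysis was possible because only 1 group was described and no test was made. The count of expressed genes moved by less than 1.5 times under every alternative run. At an FPKM of at least 5 the expressed transcription factors were 382, in place of 629, the HOX genes 6, in place of 15, the pan-neuronal genes 2, in place of 9, and the lineage markers 46, in place of 70. At 0.1 FPKM 23 HOX genes were counted, and at 1 count in each library 24 HOX genes, 570 receptors (311 at 1 FPKM) and 133 lineage markers. As shares of expected counts, the 10 most abundant genes held 9.31%, the 100 most abundant 21.1%, mitochondrial mRNAs 8.74%, ribosomal protein genes 4.06%, the KEGG Ribosome pathway 4.29% and glycolysis 1.96%, since FPKM divides by length. With mitochondrial genes left out, 8 of the 20 most abundant genes were shared. Genes with a coefficient of variation over 20% were 1073 with a minimum of 10 counts and 233 from FPKM. Without replicate 2 they were 98, without replicate 1 174 and without replicate 3 221. Among genes with whole counts only, an alternative chosen after seeing the data, they were 73. The lowest Pearson's r was 0.996 with a pseudocount of 0.1 and 0.999 on CPM. The 28 lists were affected most at 1 count in each library, where 16 moved by over 1.5 times, and at 5 FPKM, where 13 did.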
